A study of Mus musculus with 12 samples.

Results

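The Wnt ligands, their receptors and the secreted proteins that hold them back were examined as 1 gene group in bulk RNA sequencing of mouse dorsal meninges. Members were the rows of the count table named as a Wnt, a Frizzled receptor (Fzd), a secreted Frizzled-related protein (Sfrp), a Dickkopf (Dkk), 1 of the R-spondins Rspo1 to Rspo4, the co-receptors Lrp5 and Lrp6, or as Frzb, Wif1, Notum or Axin2. Of 55385 rows, 48 matched, namely 19 Wnt ligands, 10 Frizzled receptors, 2 Lrp co-receptors, 4 R-spondins, 11 secreted inhibitors, Axin2 and an antisense RNA, Fzd10os, whose name fits the same pattern. Of these, 41 passed the filter on low counts and were tested among 18238 genes.

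Aged TBI and Young TBI mice received 1 mild closed-skull impact to the right side of the head (traumatic brain injury, TBI), and Aged Sham and Young Sham mice received anaesthesia without an impact. All were male wild-type C57BL/6 mice (the young C57BL/6J by the methods) and were sampled 1.5 months later. At the procedure the aged mice were 20 months old (20 to 24 months by the sample labels) and the young mice 10 weeks old, and because the aged mice came from a different supplier, age and supplier cannot be told apart. Each group had 3 libraries, each a pool of RNA from 2 mice (2 to 3 by the figure legends), so that the spread between libraries is a spread between pools. The tissue was scraped from the dorsal skullcap, and the point of impact was not part of it. In such bulk RNA, fewer cells of a type and less RNA per cell cannot be told apart.

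Wnt proteins are lipid-modified ligands that bind Frizzled receptors. Together with Lrp5 or Lrp6, a Frizzled bound by a canonical Wnt stabilises beta-catenin, which then acts with TCF and LEF factors on target genes such as Axin2, while other Wnts act through Ror and Ryk receptors without beta-catenin. R-spondins strengthen the signal by keeping Frizzled receptors at the cell surface, Sfrp proteins, Frzb and Wif1 bind Wnts, Dkk1, Dkk2 and Dkk4 bind the Lrp co-receptors, and Notum removes the lipid from the ligand. In the meninges and the skull the pathway is known for its part in vessel development of the brain and in bone formation.

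Total counts ranged from 8092374 to 16087717 per library, and the members held between 0.242% and 0.295% of them. Every one of the 9 meningeal fibroblast markers and the 9 arachnoid and pial markers was measured. Summed over the list, the fibroblast markers (Col1a1, Dcn and others) reached 9738 to 11584 CPM (counts scaled to a common library total, after TMM normalisation) in Aged TBI and 9462 to 10814 CPM in Aged Sham libraries, against 18633 to 21262 CPM in Young TBI and 16614 to 21436 CPM in Young Sham libraries. Arachnoid and pial markers summed to 2260 to 2368 CPM in Aged TBI and 2081 to 2692 CPM in Aged Sham libraries, against 1394 to 1808 CPM in Young TBI and 1510 to 1779 CPM in Young Sham libraries. The 9 bone and cartilage markers summed to 933 to 1034 CPM in Aged TBI and 947 to 1697 CPM in Aged Sham libraries, against 1417 to 1601 CPM in Young TBI and 1287 to 1639 CPM in Young Sham libraries. Fibroblast sums were lower and arachnoid and pial sums higher in all 6 aged libraries than in all 6 young ones, and bone sums were lower in all aged libraries but Aged Sham 3. Col1a2 and Col1a1 were the largest parts of the fibroblast sums. Of the 9 fibroblast markers, 2 had positive log2 fold changes in Aged Sham over Young Sham, and 4 in Aged TBI over Young TBI. Ptgds was the largest part of the arachnoid and pial sums. Of these 9 markers, 4 were called higher in the first comparison and 5 in the second. Slc47a1 was lower in both (log2 fold changes -0.19 and -0.07), without a call. The part of these cell types in the differences described here was not tested.

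Some libraries stood apart in marker genes, and some of these also held the highest values of several members. Aged Sham 3 held 973 CPM of the bone sialoprotein gene Ibsp, against at most 86.3 CPM in any other library. Its 6 pituitary and pineal markers summed to 1593 CPM, against 669 to 961 CPM in the others, and 3 of the 5 that were tested were called higher in Aged Sham over Young Sham. It was also the highest or lowest of the 12 libraries for 23 of the 41 members tested (56.1%), against 29.4% of all genes tested. It held 32.6 CPM of Wnt4, 12.6 CPM of Wif1, 8.52 CPM of Wnt7b and 559 CPM of Sfrp4, each the highest of its gene, and the part of bone, pituitary or pineal RNA in these values was not tested. Aged TBI 1 and Young Sham 2 were the libraries with skin keratins: Krt14 reached 98.3 CPM in Aged TBI 1 and 91.6 CPM in Young Sham 2, and at most 1.05 CPM elsewhere. The same Aged TBI 1 library held the highest Wnt10a value, 5.12 CPM, and Young Sham 2 was the highest of its group for Wnt10a and Wnt7b. Muscle markers summed to 1503 CPM in Aged TBI 2 and 376 CPM in Young TBI 3, against at most 41.5 CPM in the others.

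**Figure D1:**
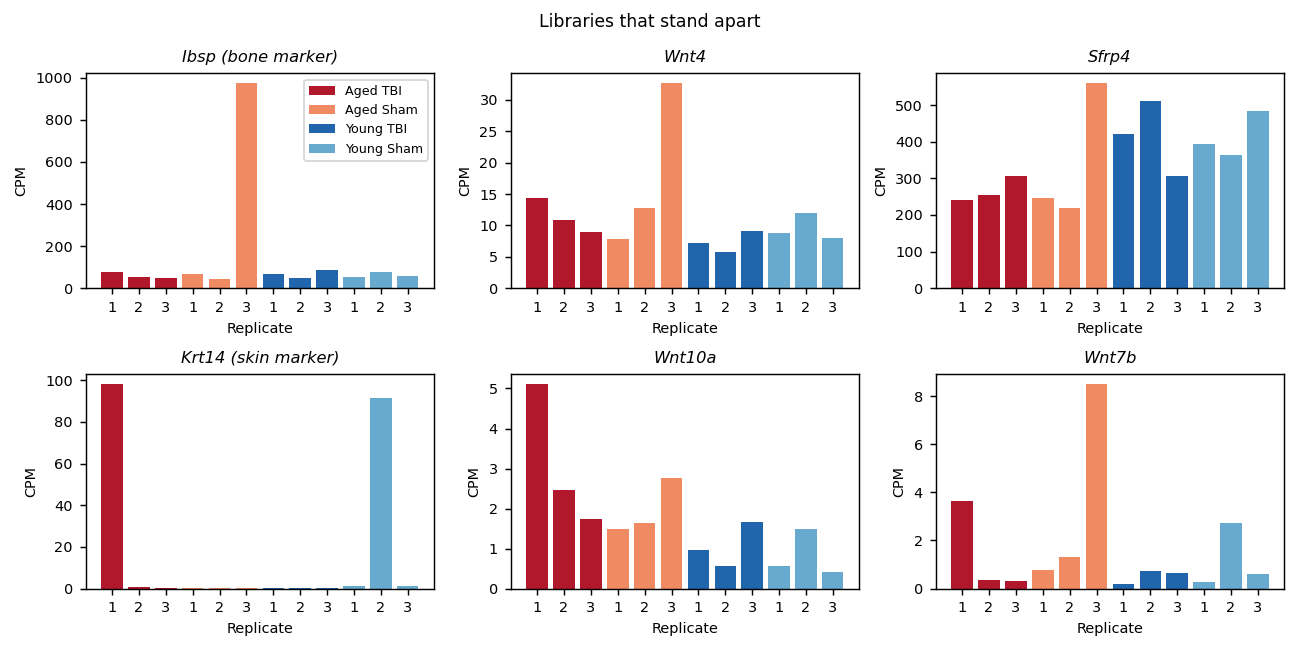
CPM (y axis, a scale per gene) of 2 marker genes and 4 members in each of the 12 libraries, as bars grouped and coloured by group, with the replicate number on the x axis. Ibsp stood at 973 CPM in Aged Sham 3, where Wnt4, Sfrp4 and Wnt7b were also highest, and Krt14 was high in Aged TBI 1 and Young Sham 2, with Wnt10a highest in Aged TBI 1.

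Secreted inhibitors were the most abundant transcripts of the group. Scaled to CPM per kb of exon, so that genes of different length can be compared, Sfrp2 averaged 109 CPM per kb over the 12 libraries, Sfrp4 85.9 and Dkk3 77.0. These 3 genes made up 42.2% of the summed CPM per kb of the 40 tested members with an exon length, and the 10 inhibitors tested made up 47.6%. The 10 Frizzled receptors followed with 30.0%, led by Fzd7 at 58.7, Fzd1 at 46.4 and Fzd2 at 29.3 CPM per kb. Lrp5 (29.8 CPM per kb) and Lrp6 (17.5 CPM per kb) were the 7th and 10th members in this order, and Rspo3, which in mice is required for placental and vascular development, was the 6th (30.1 CPM per kb). The 14 Wnt ligands tested made up 8.87% of the sum, the 2 Lrp co-receptors 7.36% and the 3 R-spondins 5.47%. The leading ligands were Wnt9a (15.7 CPM per kb), known in mice for its part in joint formation, Wnt5b (10.5 CPM per kb) and Wnt10b (8.08 CPM per kb).

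The median coefficient of variation (SD over mean) of the members tested was 11.3% in Aged TBI, 18.9% in Aged Sham, 12.1% in Young TBI and 11.6% in Young Sham libraries. Wnt7b was the most variable tested member in every group, from 54.6% in Young TBI to 134% in Aged TBI libraries. Wnt5a, a ligand of the branch without beta-catenin, was by contrast nearly level over all 12 libraries, at 33.9 ± 1.79 CPM in Aged TBI, 34.9 ± 0.493 CPM in Aged Sham, 33.5 ± 1.41 CPM in Young TBI and 33.8 ± 1.69 CPM in Young Sham libraries (SD, n = 3 each).

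The 7 members set aside for low counts were Wnt8b with 76 counts summed over all 12 libraries, Rspo4 with 66, Wnt3a with 13, Wnt7a with 10, Wnt8a with 9, Wnt1 with 6 and Dkk4 with 2. They were not tested. The antisense RNA Fzd10os was tested, and its group means lay between 1.26 CPM in Aged Sham and 1.88 CPM in Young TBI libraries, with no call in any comparison. The strand setting of the counting was not given in the sources used here, so reads of genes that overlap on opposite strands may not have been told apart. The called members Wnt5b, Wnt6 and Notum overlap genes on the opposite strand in the annotation, as do Axin2 and Sfrp2 among others. Fzd10os had no exon length there, so whether its reads could be told apart from those of Fzd10 was not checked.

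**Figure D2:**
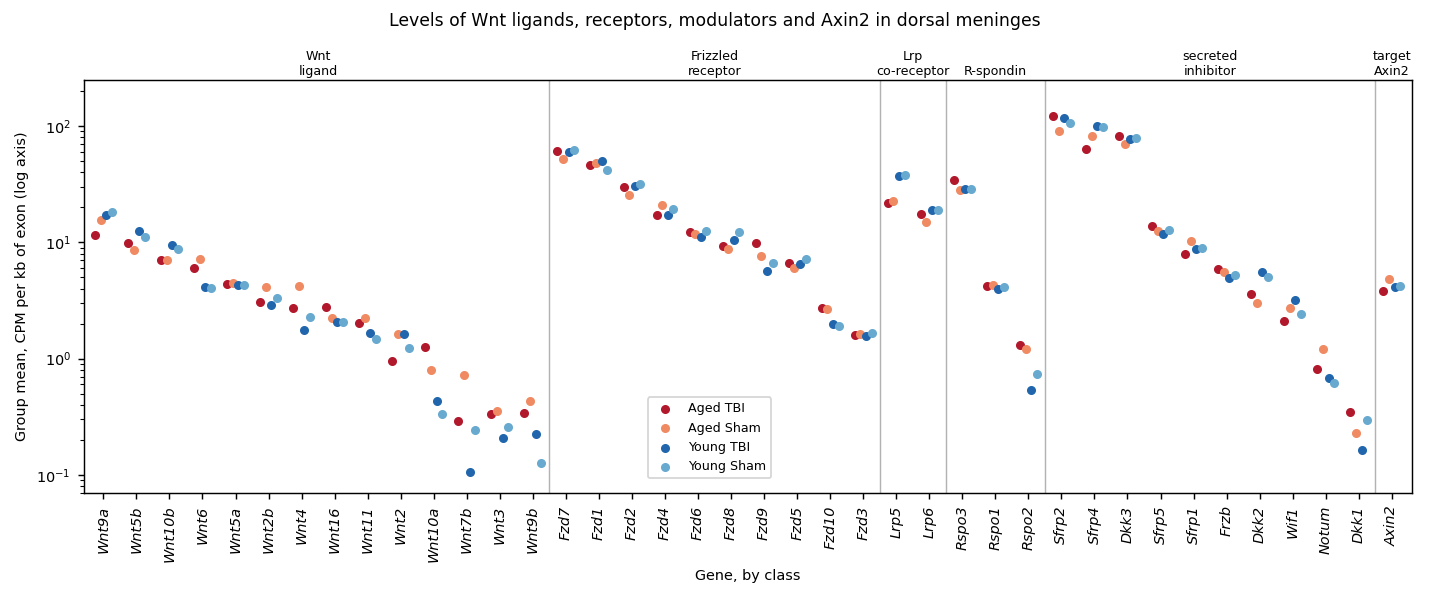
Group means in CPM per kb of exon, on a log axis, of the 40 tested members with an exon length, ordered by class and by level within it; each point is the mean of 3 libraries of the group given by its colour. Sfrp2, Sfrp4 and Dkk3 were the 3 highest. Wnt ligands and Frizzled receptors overlapped in level. Averaged over the 12 libraries, the ligands ran from 0.280 (Wnt9b) to 15.7 CPM per kb (Wnt9a). The receptors ran from 1.61 (Fzd3) to 58.7 CPM per kb (Fzd7).

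Age was compared first in mice without injury (Aged Sham against Young Sham) and then in injured mice (Aged TBI against Young TBI); the 2 comparisons use different libraries. Calls were made at an adjusted p under 0.1, as the study did. By this rule 13 of 41 members were called in Aged Sham against Young Sham, 5 higher and 8 lower, where 15.6% of all genes tested were called (7.89% higher and 7.71% lower). In Aged TBI against Young TBI 10 of 41 members were called, 5 higher and 5 lower, where 20.2% of all genes were called (9.92% higher and 10.3% lower). Without Aged Sham 3, Aged TBI 1 and Young Sham 2 together, an alternative added after the data were seen, the counts were 10 and 9, and leaving out single libraries gave 5 (without Young Sham 3) to 15 (without Aged Sham 1) called members without injury and 3 (without Aged TBI 1 or without Young TBI 2) to 14 (without Aged Sham 3) with injury. Scaled by library totals alone, the split was 6 higher and 5 lower without injury and 11 higher and 3 lower with injury. How many of all genes were called in each of these refits is not given here, so these member counts have no background beside them. The 3 and 3 libraries did not overlap for 13 members (31.7%) in Aged Sham against Young Sham and for 17 members (41.5%) in Aged TBI against Young TBI, against 28.4% and 35.1% of all genes. The median log2 fold change over the members was 0.05 in both comparisons, and over all genes tested it was 0.01 without injury and 0.02 with injury.

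Of the 41 members, 5 were called in both age comparisons, and each of them in the same direction: Lrp5, Dkk2 and Wnt5b were lower and Rspo2 and Wnt6 higher in aged meninges. They were 38.5% of the calls without injury and 50% of those with injury. Over all 18238 genes tested 1621 were called in both, which was 57.0% of the calls without injury and 44.0% of those with injury. Of these 1621 genes, 1618 had the same direction in both. Signs of the 2 fold changes were equal for 27 of 41 members (65.9%), against 70.4% of all genes. Calls were also checked by leaving out each of the 12 libraries in turn and in 6 other alternatives (DESeq2, 2 other scalings, no filter, only the 2 groups compared, and the 3 libraries left out together). A further alternative, the replicate number as a term in the fit, is not among these 6, and it also ended several of the calls. When single libraries were left out, 8 of the 25 calls in the age and injury comparisons were kept in every refit, namely Lrp5 in both age comparisons, Lrp6, Fzd2, Wnt6 and Wnt9b without injury, and Fzd9 and Rspo2 with injury.

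**Figure D3:**
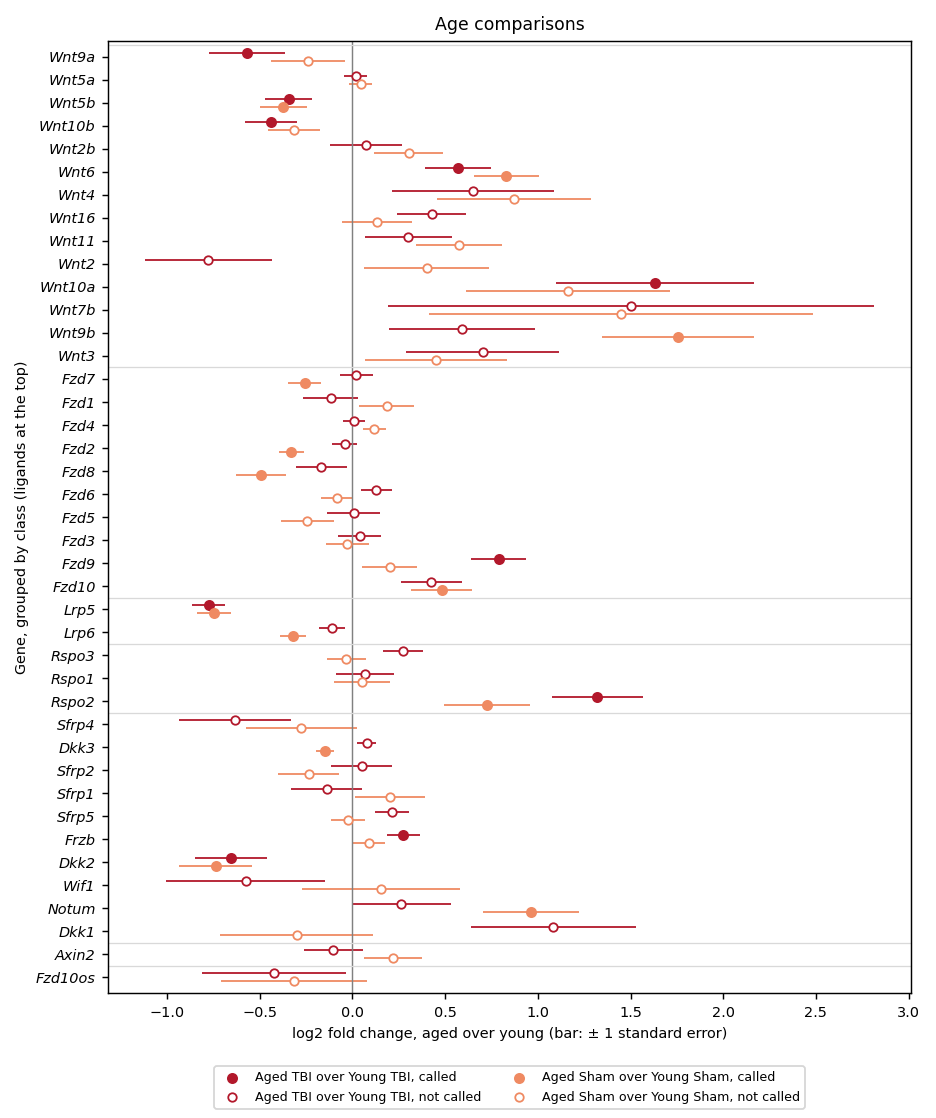
Log2 fold changes of the 41 tested members, aged over young, with bars of 1 standard error; Aged TBI over Young TBI is drawn in dark red above Aged Sham over Young Sham in orange, and filled points passed an adjusted p under 0.1. Filled points of both colours stand at Lrp5, Dkk2 and Wnt5b left of 0 and at Rspo2 and Wnt6 right of 0.

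Lrp5, the co-receptor best known from the bone mass and retinal vessel disorders that its mutations cause in humans, was the member with the lowest adjusted p in both age comparisons. Lrp5 had 235, 199 and 198 CPM in Aged TBI libraries and 206, 227 and 229 CPM in Aged Sham libraries, against 405, 338 and 339 CPM in Young TBI libraries and 386, 345 and 379 CPM in Young Sham libraries. All 6 aged libraries lay below all 6 young ones, and injured and sham libraries of the same age overlapped. The log2 fold change was -0.75 ± 0.09 (adjusted p = 0.00102) in Aged Sham over Young Sham and -0.78 ± 0.09 (adjusted p = 0.000767) in Aged TBI over Young TBI, which is 0.596 and 0.584 times the young level. The gene lies at chr19:3584828-3686564 on the minus strand (GRCm38). When each library was left out in turn, it stayed between -0.80 and -0.70 without injury and between -0.87 and -0.70 with injury, and no alternative ended either call.

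Lrp6, its close relative and a co-receptor that mouse embryos need for normal development, had smaller fold changes. In Aged TBI libraries Lrp6 had 245, 225 and 244 CPM and in Aged Sham libraries 222, 203 and 191 CPM, whereas Young TBI libraries had 266, 268 and 236 CPM and Young Sham libraries 257, 245 and 269 CPM. The Aged Sham libraries were the lowest of the 12, and the Aged TBI libraries overlapped the young ones. Lrp6 (chr6:134446476-134566965, minus strand) was called lower in Aged Sham over Young Sham, with a log2 fold change of -0.32 ± 0.07 (adjusted p = 0.0155), and this call was kept in all 12 refits that each left out 1 library and in all 6 other alternatives. In Aged TBI over Young TBI the log2 fold change was -0.11 ± 0.07 (adjusted p = 0.335). The ratio of Lrp5 to Lrp6 per kb, which does not depend on how libraries are scaled and was chosen after the values were seen, was 1.35, 1.24 and 1.14 in Aged TBI and 1.30, 1.57 and 1.68 in Aged Sham libraries, against 2.14, 1.77 and 2.01 in Young TBI and 2.11, 1.98 and 1.98 in Young Sham libraries. Lrp5 exceeded Lrp6 per kb in every library, and the 6 aged ratios were all below the 6 young ones.

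The bone markers also moved with age. Of the 9, 6 were called lower and 2 higher in Aged Sham over Young Sham, and 5 lower in Aged TBI over Young TBI, and the median log2 fold change of the list was -0.78 without injury and -0.55 with injury. Both genes called higher, Ibsp and Dmp1, were highest in the Aged Sham 3 library. Of the 9 fibroblast markers, 5 were called lower without injury, and 4 lower and 1 higher with injury. None of the markers in either list was at 0 in any library, and the part of bone or fibroblast cells in the Lrp5 difference was not tested.

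Among Wnt ligands, 3 of 14 were called in Aged Sham over Young Sham and 5 of 14 in Aged TBI over Young TBI, where 15.6% and 20.2% of all genes were called. Wnt6, a canonical ligand expressed in many epithelia, was called higher in both. The Wnt6 values were 13, 14.2 and 12.2 CPM in Aged TBI libraries, 12.3, 17.3 and 17.4 CPM in Aged Sham libraries, 9.20, 6.69 and 11 CPM in Young TBI libraries and 8.58, 8.28 and 9.59 CPM in Young Sham libraries. Every aged library lay above every young one, with a log2 fold change of 0.83 ± 0.18 (adjusted p = 0.0136) without injury, kept in all 12 refits that each left out 1 library but lost in 1 of 6 other alternatives, and 0.57 ± 0.18 (adjusted p = 0.0548) with injury, where the call was lost without Aged TBI 1 (adjusted p = 0.111), Aged TBI 2 (0.137), Young TBI 1 (0.132) or Young TBI 2 (0.194), and was also lost in 1 of 6 other alternatives. Without Aged Sham 3, Aged TBI 1 and Young Sham 2 together the adjusted p was 0.108 without injury and 0.115 with injury.

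Wnt9b, a ligand that induces kidney tubules in mice, was a scarce transcript with a large change. In Aged TBI libraries Wnt9b had 1.58, 1.64 and 1.37 CPM and in Aged Sham libraries 1.02, 2.11 and 2.68 CPM, whereas Young TBI libraries had 1.45, 0.717 and 0.893 CPM and Young Sham libraries 0.381, 0.475 and 0.842 CPM. The Aged Sham and Young Sham libraries did not overlap, whereas Young TBI 1 lay above Aged TBI 3. It was called higher in Aged Sham over Young Sham, with a log2 fold change of 1.75 ± 0.41 (adjusted p = 0.0218), and this call was kept in all 12 refits that each left out 1 library but lost in 1 of 6 other alternatives, although without the 3 libraries that stood apart the adjusted p was 0.174. In Aged TBI over Young TBI it was 0.59 ± 0.39 (adjusted p = 0.354).

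Wnt5b, a relative of Wnt5a that signals mainly without beta-catenin, was called lower in both age comparisons. The Wnt5b values were 22.1, 30.5 and 25.7 CPM in Aged TBI libraries, 26.4, 23 and 18.7 CPM in Aged Sham libraries, 32.7, 34.6 and 31.9 CPM in Young TBI libraries and 28.8, 29.7 and 29.8 CPM in Young Sham libraries. Aged TBI and Young TBI libraries did not overlap, nor did Aged Sham and Young Sham libraries, but Aged TBI 2 lay above all 3 Young Sham libraries. Log2 fold changes were -0.37 ± 0.13 (adjusted p = 0.0861) without injury and -0.34 ± 0.13 (adjusted p = 0.0928) with injury. The call without injury was lost in 9 of the 12 refits that each left out 1 library (adjusted p = 0.105 to 0.219, the highest without Aged Sham 3) and held without Aged TBI 1, Aged TBI 2 or Aged Sham 1, and was also lost in 3 of 6 other alternatives. With injury the call was lost in 9 of the 12 refits that each left out 1 library (adjusted p = 0.104 to 0.250, the highest without Aged TBI 1) and held without Aged TBI 2, Aged Sham 1 or Aged Sham 3, and was also lost in 2 of 6 other alternatives.

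Wnt10b and Wnt9a, of which the first is known in mice for raising bone mass and holding back fat cells, were called lower in injured mice. Wnt10b had 18.8, 25.4 and 27.5 CPM in Aged TBI libraries, against 35.4, 32.9 and 28.7 CPM in Young TBI libraries, and its log2 fold change was -0.44 ± 0.14 (adjusted p = 0.0584). This call was lost without Aged TBI 1 (adjusted p = 0.161), Young TBI 1 (0.187) or Young TBI 2 (0.132). Wnt9a had 32.4, 44.7 and 38.8 CPM in Aged TBI libraries, against 55.9, 50.9 and 65.5 CPM in Young TBI libraries, with no overlap, and its log2 fold change was -0.57 ± 0.20 (adjusted p = 0.0863). Its call was lost in 7 of the 12 refits that each left out 1 library (adjusted p = 0.101 to 0.228, the highest without Aged TBI 1) and held without Aged TBI 2, Aged Sham 1, Aged Sham 2, Aged Sham 3 or Young Sham 3, and was also lost in 1 of 6 other alternatives. Without injury the fold changes were -0.32 ± 0.14 (adjusted p = 0.186) for Wnt10b and -0.24 ± 0.20 (adjusted p = 0.501) for Wnt9a, and Aged Sham 3 held the highest Wnt9a value of all libraries, 72.6 CPM.

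Wnt10a, a ligand of teeth, hair and skin, was called higher in injured mice. It had 5.12, 2.47 and 1.75 CPM in Aged TBI libraries, against 0.969, 0.558 and 1.66 CPM in Young TBI libraries. The groups did not overlap, but Aged TBI 1, which also held Krt14 and Krt5, was far above the next value of any group, 2.76 CPM in Aged Sham 3. Its call, at a log2 fold change of 1.63 ± 0.54 (adjusted p = 0.0648), was lost without Aged TBI 1 (adjusted p = 0.247), Young TBI 1 (0.181) or Young TBI 2 (0.214), and was also lost in 1 of 6 other alternatives, and without Aged TBI 1 the log2 fold change was 1.05. Skin and hair markers summed to 17.9 to 162 CPM in Aged TBI libraries, against 12 to 15.4 CPM in Young TBI libraries, and of these 4 markers only Krt5 was called higher. Krt5 was at 0 in Aged Sham 1 and Young TBI 1. The part of skin in the Wnt10a difference was not tested.

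The other ligands were not called in either age comparison. Wnt16, which in mice adds to cortical bone thickness, had a log2 fold change of 0.43 ± 0.19 (adjusted p = 0.157) with injury and 0.13 ± 0.19 (adjusted p = 0.719) without. Wnt4, Wnt7b, Wnt2b, Wnt11 and Wnt2 were all highest in Aged Sham 3, and their fold changes between Aged Sham and Young Sham ranged from 0.30 for Wnt2b to 1.45 for Wnt7b (adjusted p = 0.149 to 0.509). Over the 14 ligands the median log2 fold change was 0.43 without injury and 0.36 with injury, with 11 and 10 of them above 0, yet the summed CPM of the class was 182 to 198 in Aged TBI and 188 to 267 in Aged Sham libraries, against 198 to 214 in Young TBI and 201 to 216 in Young Sham libraries. Of the 4 ligands with the highest CPM, Wnt9a, Wnt5b and Wnt10b had negative fold changes in both age comparisons, and Wnt5a had fold changes of 0.04 ± 0.06 without injury and 0.02 ± 0.06 with injury.

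Frizzled receptors are shared by the whole ligand family. Of the 10, 4 were called in Aged Sham over Young Sham, where 15.6% of all genes were called. Fzd2, Fzd7 and Fzd8 were lower and Fzd10 was higher. In Aged TBI over Young TBI 1 of 10 was called, Fzd9, and it was higher, where 20.2% of all genes were called.

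Fzd2 had 91.3, 93.8 and 92.4 CPM in Aged Sham libraries, against 118, 112 and 119 CPM in Young Sham libraries. The 3 Aged Sham libraries lay close together and below every other library. Fzd2 was lower, with a log2 fold change of -0.33 ± 0.07 (adjusted p = 0.0110), a call that was kept in all 12 refits that each left out 1 library and in all 6 other alternatives, while in Aged TBI over Young TBI it was at -0.04 ± 0.07 (adjusted p = 0.727). Fzd8 had 51, 45.7 and 58.7 CPM in Aged Sham libraries, against 74.8, 65.1 and 78.8 CPM in Young Sham libraries, with no overlap and a log2 fold change of -0.49 ± 0.14 (adjusted p = 0.0420). Its call was lost without Aged Sham 2 (adjusted p = 0.142), Young Sham 1 (0.109) or Young Sham 3 (0.157). Fzd7, the most abundant receptor, was lower, with a log2 fold change of -0.26 ± 0.09 (adjusted p = 0.0957), at 236 ± 23.4 CPM in Aged Sham against 283 ± 20 CPM in Young Sham libraries (SD, n = 3 each), and this call was lost in 8 of the 12 refits that each left out 1 library (adjusted p = 0.101 to 0.263, the highest without Young Sham 3) and held without Aged Sham 1, Aged Sham 2, Young TBI 2 or Young Sham 2, and was also lost in 3 of 6 other alternatives.

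Fzd9, whose loss in mice lowers bone formation, was the receptor with the largest age difference in injured mice. The Fzd9 values were 22.1, 20.3 and 25.4 CPM in Aged TBI libraries, 14.1, 21.8 and 17 CPM in Aged Sham libraries, 14.5, 12 and 12.6 CPM in Young TBI libraries and 15.6, 16 and 14.4 CPM in Young Sham libraries. The 3 Aged TBI libraries were above every library of the young groups, and Aged Sham 2 reached the Aged TBI range. On the log2 scale the change was 0.79 ± 0.15 (adjusted p = 0.00651) in Aged TBI over Young TBI, which was kept in all 12 refits that each left out 1 library and in all 6 other alternatives, and 0.20 ± 0.15 (adjusted p = 0.441) in Aged Sham over Young Sham. Fzd10, a low-level receptor, had 7.35, 9.04 and 9.41 CPM in Aged Sham libraries, against 6.01, 6.38 and 6.06 CPM in Young Sham libraries, with a log2 fold change of 0.48 ± 0.16 (adjusted p = 0.0876). This call was lost in 8 of the 12 refits that each left out 1 library (adjusted p = 0.108 to 0.222, the highest without Young Sham 3) and held without Aged TBI 2, Aged TBI 3, Aged Sham 1 or Young TBI 3, and was also lost in 4 of 6 other alternatives. In injured mice the log2 fold change of Fzd10 was 0.43 ± 0.16 (adjusted p = 0.112). The remaining receptors, Fzd1, Fzd3, Fzd4, Fzd5 and Fzd6, passed in neither age comparison, and their log2 fold changes lay between -0.24 and 0.18.

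Rspo2 (chr15:43020794-43170826, minus strand), an R-spondin required for limb and lung development in mice, was called higher in both age comparisons and had the largest fold change of the 5 such members in injured mice. Rspo2 had 6.03, 7.74 and 6.47 CPM in Aged TBI libraries and 6.41, 7.75 and 4.30 CPM in Aged Sham libraries, against 2.91, 1.99 and 3.32 CPM in Young TBI libraries and 3.91, 4.07 and 3.20 CPM in Young Sham libraries. All 6 aged libraries were above all 6 young ones, the closest values being 4.30 CPM in Aged Sham 3 and 4.07 CPM in Young Sham 2. The log2 fold change in injured mice was 1.32 ± 0.24 (adjusted p = 0.00587), kept in all 12 refits that each left out 1 library and in all 6 other alternatives. Without injury it was 0.72 ± 0.23 (adjusted p = 0.0726), a call lost without Aged Sham 1 (adjusted p = 0.111), Aged Sham 2 (0.252), Young Sham 1 (0.138), Young Sham 2 (0.120) or Young Sham 3 (0.234), and was also lost in 1 of 6 other alternatives. Rspo3, far more abundant per kb (30.1 against 0.947 CPM per kb), had 108, 105 and 108 CPM in Aged TBI libraries, against 88.1, 80.5 and 97.4 CPM in Young TBI libraries, a log2 fold change of 0.27 ± 0.11 (adjusted p = 0.115) without overlap, and Rspo1 was at 0.07 ± 0.15 (adjusted p = 0.818) in the same comparison.

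Of the secreted inhibitors, 3 of 10 were called without injury and 2 of 10 with injury, where 15.6% and 20.2% of all genes were called. Dkk2, which binds Lrp5 and Lrp6, was lower in both. The Dkk2 values were 11.7, 12.5 and 15.6 CPM in Aged TBI libraries, 12.4, 12.9 and 8.19 CPM in Aged Sham libraries, 20.9, 25.2 and 16.1 CPM in Young TBI libraries and 17.3, 17 and 21.6 CPM in Young Sham libraries. Aged and young libraries did not overlap. On the log2 scale the difference was -0.74 ± 0.20 (adjusted p = 0.0364) without injury, a call lost without Young Sham 3 (adjusted p = 0.153), and -0.66 ± 0.19 (adjusted p = 0.0448) with injury, where it was lost without Aged TBI 1 (adjusted p = 0.133), Aged TBI 2 (0.104), Young TBI 1 (0.115) or Young TBI 2 (0.165).

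Notum, the extracellular lipase that inactivates Wnts, was higher in Aged Sham over Young Sham. It had 2.03, 2.92 and 3.73 CPM in Aged Sham libraries, against 1.81, 1.63 and 1.01 CPM in Young Sham libraries. The groups did not overlap, and the highest value was that of Aged Sham 3. The call, at a log2 fold change of 0.96 ± 0.26 (adjusted p = 0.0380), was lost without Aged Sham 3 (adjusted p = 0.118) or Young Sham 3 (0.153), and was also lost in 2 of 6 other alternatives. In injured mice the log2 fold change was 0.26 ± 0.27 (adjusted p = 0.560). Frzb, the Wnt-binding protein first described in cartilage, had 18.6, 20.1 and 18.5 CPM in Aged TBI libraries, against 15.8, 14.7 and 17 CPM in Young TBI libraries, a log2 fold change of 0.27 ± 0.09 (adjusted p = 0.0662), and a call lost without Aged TBI 1 (adjusted p = 0.115), Aged TBI 2 (0.184), Aged TBI 3 (0.119), Young TBI 1 (0.169) or Young TBI 2 (0.226), and was also lost in 3 of 6 other alternatives. The adjusted p with DESeq2 was 0.155.

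Dkk3, the divergent Dickkopf that does not share the others' binding to the Lrp co-receptors, was called lower in Aged Sham over Young Sham, with a log2 fold change of -0.15 ± 0.05 (adjusted p = 0.0834). Its call was lost in 9 of the 12 refits that each left out 1 library (adjusted p = 0.110 to 0.247, the highest without Young Sham 1) and held without Aged TBI 1, Aged TBI 3 or Aged Sham 1, and was also lost in 4 of 6 other alternatives. The most abundant inhibitors, Sfrp2 and Sfrp4, were not called. Sfrp4 had 239.9, 255 and 306 CPM in Aged TBI libraries and 246, 219.6 and 559 CPM in Aged Sham libraries, against 421, 512 and 307 CPM in Young TBI libraries and 393, 363 and 485 CPM in Young Sham libraries. Except for Aged Sham 3, which was the highest of all, the aged libraries were below every young library. The log2 fold changes of Sfrp4 were -0.28 ± 0.30 (adjusted p = 0.623) without injury and -0.63 ± 0.30 (adjusted p = 0.189) with injury.

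Axin2, the feedback inhibitor whose transcription is a common readout of beta-catenin activity, was not called in any comparison. In Aged TBI libraries Axin2 had 20.3, 21.2 and 21.5 CPM and in Aged Sham libraries 21.1, 25.3 and 33.7 CPM, whereas Young TBI libraries had 20.2, 22.1 and 25.6 CPM and Young Sham libraries 26.4, 19.7 and 23.1 CPM. Aged and young libraries overlapped, and the highest value was again that of Aged Sham 3. The log2 fold change was 0.22 ± 0.16 (adjusted p = 0.432) in Aged Sham over Young Sham and -0.10 ± 0.16 (adjusted p = 0.718) in Aged TBI over Young TBI. Intervals of 2 standard errors on either side of these estimates run from -0.10 to 0.53 without injury and from -0.42 to 0.21 with injury. In Aged TBI over Aged Sham the log2 fold change was -0.35 ± 0.16 (adjusted p = 0.336), with such an interval from -0.66 to -0.03 and Aged TBI values that overlapped the Aged Sham range, and in Young TBI over Young Sham it was -0.03 ± 0.16 (adjusted p = 1.0), with an interval from -0.35 to 0.29.

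**Figure D4:**
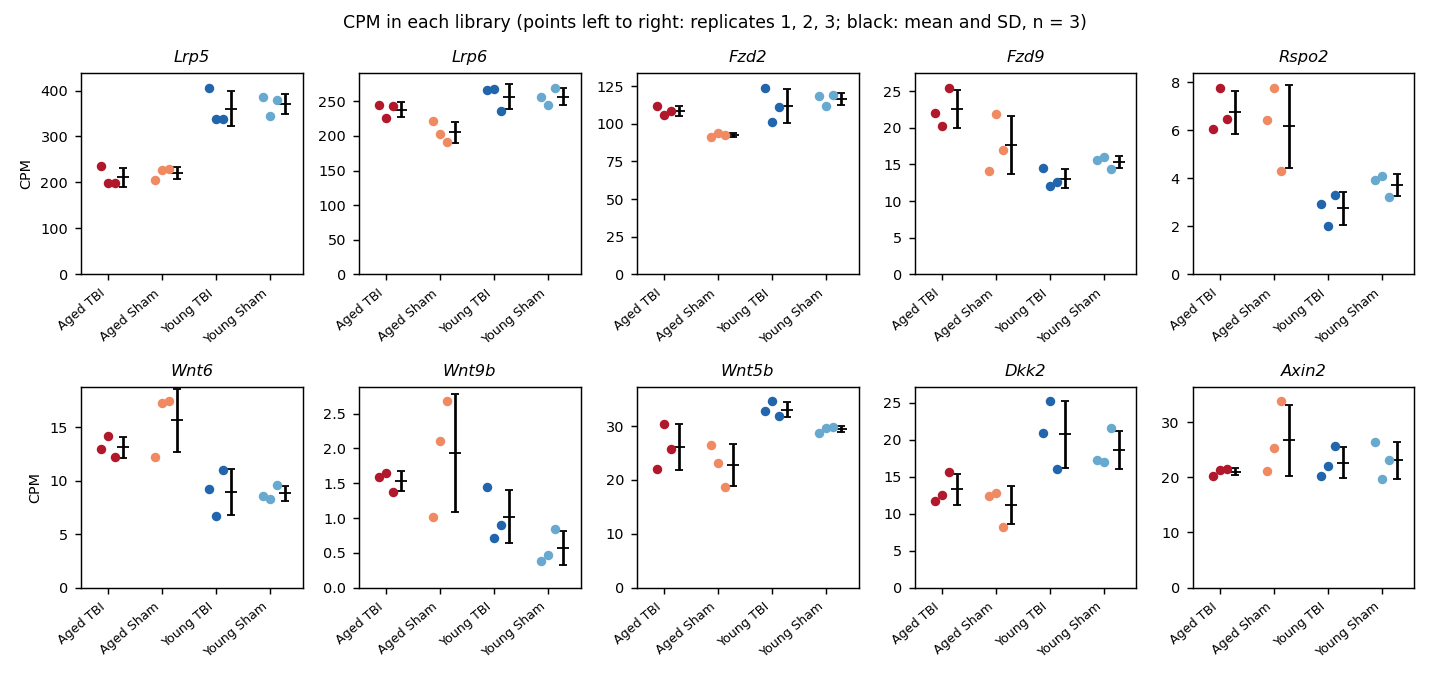
CPM of 10 members in each library, with points for replicates 1, 2 and 3 from left to right within each group and, in black, the mean and SD of the 3 libraries; every axis starts at 0. Lrp5 and Dkk2 were lower and Rspo2 and Wnt6 higher in all 6 aged libraries than in all 6 young ones, while Axin2 overlapped between the groups.

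Promoter sequence is shown for the members called in both age comparisons, of which Lrp5, Dkk2 and Wnt5b were lower and Rspo2 and Wnt6 higher. RefSeq windows were given for 3 of these 5 genes, Wnt6, Dkk2 and Wnt5b, and for 30 of the 48 members in all. The 250 bases before the start site (GRCm38.p6) are printed 5′ to 3′ along the gene's strand, for Wnt5b at the start farthest upstream and at the start farthest downstream of its 3 annotated starts. Capitals mark matches to the TCF/LEF core motif, searched on both strands as CTTTG followed by 2 letters that are each A or T.
Wnt6 (chr1:74771642-74771891, plus strand): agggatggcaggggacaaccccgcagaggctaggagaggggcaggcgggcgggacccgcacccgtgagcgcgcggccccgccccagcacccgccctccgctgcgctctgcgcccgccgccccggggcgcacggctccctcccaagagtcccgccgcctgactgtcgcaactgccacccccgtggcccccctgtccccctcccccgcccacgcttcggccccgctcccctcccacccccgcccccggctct
Dkk2 (chr3:132085042-132085291, plus strand): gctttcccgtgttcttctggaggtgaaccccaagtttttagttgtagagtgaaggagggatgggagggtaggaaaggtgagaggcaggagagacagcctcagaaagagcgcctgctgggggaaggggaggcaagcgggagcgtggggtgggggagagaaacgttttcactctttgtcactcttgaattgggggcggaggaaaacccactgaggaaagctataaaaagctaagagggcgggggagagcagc
Wnt5b, upstream start (chr6:119544348-119544597, minus strand): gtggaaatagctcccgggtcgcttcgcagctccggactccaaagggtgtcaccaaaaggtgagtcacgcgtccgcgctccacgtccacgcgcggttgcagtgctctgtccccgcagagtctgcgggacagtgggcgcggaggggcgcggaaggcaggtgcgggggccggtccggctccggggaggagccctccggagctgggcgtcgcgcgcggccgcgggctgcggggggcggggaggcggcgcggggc
Wnt5b, downstream start (chr6:119449387-119449636, minus strand): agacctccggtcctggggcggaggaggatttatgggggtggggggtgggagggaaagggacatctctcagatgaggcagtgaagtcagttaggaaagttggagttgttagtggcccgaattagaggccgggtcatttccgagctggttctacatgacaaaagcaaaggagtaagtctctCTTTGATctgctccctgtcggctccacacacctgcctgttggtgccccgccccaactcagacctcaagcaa
The motif occurred in 1 of the 5 windows of these genes, 71 bases before the downstream start of Wnt5b. It was found in 4 of the 33 windows of all members (those of Fzd7, Wnt11, Dkk1 and Wnt5b) and in 14.8% of all 32851 windows of the same length. A match is a description of the letters in this window, and the counts do not say which Wnt5b start was used.

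Other genes of the pathway were counted over a list of 58 partners, from ligand secretion to the beta-catenin complex, all of which were tested. In Aged Sham over Young Sham 3 were higher and 16 lower, where 7.89% of all genes were called higher and 7.71% lower. In Aged TBI over Young TBI 4 were higher and 18 lower, where 9.92% of all genes were called higher and 10.3% lower. The partners had median log2 fold changes of -0.08 without injury and -0.10 with injury. Ctnnb1, which encodes beta-catenin, was lower in both (log2 fold change -0.18 ± 0.04, adjusted p = 0.0276 without injury, and -0.26 ± 0.04, adjusted p = 0.00440 with injury), at 653 ± 19 CPM in Aged TBI and 683 ± 12.1 CPM in Aged Sham libraries, against 782 ± 24.5 CPM in Young TBI and 774 ± 4.51 CPM in Young Sham libraries (SD, n = 3 each). Ctnnb1 was chosen after its values were seen, and its calls were not checked by leaving out libraries or in the other alternatives.

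The largest falls without injury were those of Dact3, an intracellular antagonist (-0.85 ± 0.09, adjusted p = 0.000721), Ror2, a receptor of Wnt5a (-0.73 ± 0.14, adjusted p = 0.00803), and Tnfrsf19, a receptor of the tumour necrosis factor family that is a target of the pathway (-0.68 ± 0.20, adjusted p = 0.0487). Calls of Dact3 and Ror2 were kept in all 12 refits, and that of Tnfrsf19 was lost without Aged Sham 2 (adjusted p = 0.150), Aged Sham 3 (0.129) or Young Sham 3 (0.203). The 3 rises without injury were those of Rnf43, the ligase that removes Frizzled receptors from the cell surface (0.65 ± 0.19, adjusted p = 0.0491), Nkd2, which binds Dishevelled (0.61 ± 0.10, adjusted p = 0.00422), and Apcdd1, a membrane-bound inhibitor (0.40 ± 0.11, adjusted p = 0.0486). The call of Nkd2 was kept in all 12 refits. That of Rnf43 was lost without Aged Sham 2 (adjusted p = 0.178), Young Sham 2 (0.163) or Young Sham 3 (0.137), and was also lost in 1 of 6 other alternatives. The call of Apcdd1 was lost without Aged Sham 2 (adjusted p = 0.174), Young Sham 1 (0.138) or Young Sham 3 (0.132), and was also lost in 2 of 6 other alternatives.

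In injured mice the largest falls were those of Lgr6, an R-spondin receptor (-1.28 ± 0.32, adjusted p = 0.0242), Sostdc1, a secreted antagonist of Wnt and BMP signals (-1.20 ± 0.38, adjusted p = 0.0602), and Tnfrsf19 (-0.75 ± 0.20, adjusted p = 0.0269). Lgr6 had 5.54, 6.85 and 4.79 CPM in Aged TBI libraries, against 12.4, 13.2 and 16.3 CPM in Young TBI libraries, with no overlap, and the calls of both it and Tnfrsf19 were kept in all 12 refits. Sostdc1 overlapped, with 33.9, 59.2 and 24.3 CPM in Aged TBI against 106, 50.7 and 114 CPM in Young TBI libraries. Its log2 fold change was -0.05 ± 0.37 (adjusted p = 0.959) in Aged Sham over Young Sham and -1.47 ± 0.38 (adjusted p = 0.113) in Aged TBI over Aged Sham. The call of Sostdc1 in Aged TBI over Young TBI was lost without Aged TBI 1 (adjusted p = 0.157), Aged TBI 3 (0.178), Young TBI 1 (0.175) or Young TBI 3 (0.168), and was also lost in 1 of 6 other alternatives. Beside Sostdc1, 7 of 8 choroid plexus markers were called lower in the same comparison, and their sum was 1236 to 2634 CPM in Aged TBI against 2754 to 4938 CPM in Young TBI libraries; their part in it was not tested. The largest rises were those of Tcf7, a TCF factor that T cells express (0.54 ± 0.20, adjusted p = 0.0985), Rnf43 (0.53 ± 0.19, adjusted p = 0.0928) and Apcdd1 (0.41 ± 0.12, adjusted p = 0.0358). All 6 T cell markers were called higher here, with sums of 20.0 to 30.0 CPM in Aged TBI against 7.94 to 12.8 CPM in Young TBI libraries, and their part in the Tcf7 value was not tested. The Tcf7 call was lost in 9 of the 12 refits that each left out 1 library (adjusted p = 0.127 to 0.274, the highest without Aged TBI 3) and held without Aged TBI 2, Aged Sham 1 or Aged Sham 3, and was also lost in 3 of 6 other alternatives. Rnf43 overlapped between Aged TBI and Young TBI libraries. The Rnf43 call was lost in 7 of the 12 refits that each left out 1 library (adjusted p = 0.102 to 0.305, the highest without Young TBI 2) and held without Aged TBI 2, Aged Sham 2, Aged Sham 3, Young TBI 3 or Young Sham 2, and was also lost in 1 of 6 other alternatives. The Apcdd1 call was lost without Aged TBI 3 (adjusted p = 0.109), Young TBI 2 (0.138) or Young TBI 3 (0.112).

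Injury was compared with the sham procedure within each age. In Aged TBI against Aged Sham, 2 of 41 members were called, Dkk3 higher and Fzd4 lower, where 1.65% of all genes tested were called (0.389% higher and 1.26% lower). At an unadjusted p under 0.05 there were 12 of the 41, against 2633 of 18238 genes. Leaving out single libraries gave 0 to 2 called members, with no count over all genes given beside them. Choroid plexus markers moved in the same comparison, with 4 of 8 called lower, a median log2 fold change of -1.57 and sums of 1236 to 2634 CPM in Aged TBI against 3792 to 4967 CPM in Aged Sham libraries, and their part in the members' values was not tested. Groups did not overlap for 8 members (19.5%), against 17.3% of all genes. Of these 8, 6 were higher in Aged TBI, a split by direction that was not counted over all genes.

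Fzd4, which with Lrp5 forms the receptor for norrin that patterns retinal vessels, had 112, 115 and 120.1 CPM in Aged TBI libraries, against 133, 136 and 150.4 CPM in Aged Sham libraries. The groups did not overlap, and the log2 fold change was -0.27 ± 0.06 (adjusted p = 0.0811), and in Young TBI over Young Sham, where it held 118, 109 and 119 CPM in Young TBI libraries against 133, 129.7 and 123 CPM in Young Sham libraries, it was -0.16 ± 0.06 (adjusted p = 1.0). The call in aged mice was lost in 9 of the 12 refits that each left out 1 library (adjusted p = 0.101 to 0.234, the highest without Aged TBI 1) and held without Aged Sham 1, Young TBI 2 or Young Sham 2, and was also lost in 2 of 6 other alternatives. Blood endothelial markers, 6 in all, summed to 1072 to 1332 CPM in Aged TBI against 1193 to 1405 CPM in Aged Sham libraries, none of them was called in this comparison, and their part in the Fzd4 value was not tested.

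Dkk3 had 261, 274 and 287 CPM in Aged TBI libraries, against 243, 239.6 and 229.7 CPM in Aged Sham libraries. The lowest Aged TBI library was above the highest Aged Sham library, and the log2 fold change was 0.21 ± 0.05 (adjusted p = 0.0950), a call lost in 12 of the 12 refits that each left out 1 library (adjusted p = 0.103 to 0.252, the highest without Aged TBI 3), and was also lost in 5 of 6 other alternatives, and in Young TBI over Young Sham the log2 fold change was -0.02 ± 0.05 (adjusted p = 1.0).

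Members that did not overlap between Aged TBI and Aged Sham but were not called were Fzd2, Fzd7, Lrp6, Rspo3, Wnt16 and Notum. Fzd2 was at 0.23 ± 0.07 (adjusted p = 0.146), Lrp6 at 0.21 ± 0.07 (adjusted p = 0.192) and Rspo3 at 0.29 ± 0.11 (adjusted p = 0.236) on the log2 scale. For Fzd2 the means were 109 ± 3.13 CPM in Aged TBI and 92.5 ± 1.26 CPM in Aged Sham libraries, beside 112 ± 11.3 CPM in Young TBI and 116 ± 4.10 CPM in Young Sham libraries (SD, n = 3 each). Sfrp2 was at 0.42 ± 0.16 (adjusted p = 0.268) and overlapped, with the highest value, 327 CPM, in Aged TBI 1. Among the partners only Dact3 was called, higher in Aged TBI (0.45 ± 0.09, adjusted p = 0.0802). This call was lost in 8 of the 12 refits that each left out 1 library (adjusted p = 0.108 to 0.215, the highest without Aged TBI 1) and held without Aged Sham 1, Young TBI 2, Young Sham 1 or Young Sham 2, and was also lost in 2 of 6 other alternatives.

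In Young TBI against Young Sham no member was called by edgeR and none by DESeq2, and 1 of 41, Fzd4, had an unadjusted p under 0.05, against 757 of 18238 genes; of all genes tested 0.00548% were called, that is 1. The groups did not overlap for 4 members (9.76%), Wif1 and Wnt5b higher and Fzd4 and Dkk1 lower in Young TBI, against 11.5% of all genes. The largest absolute fold changes were on scarce transcripts, as for Wnt9b at 0.83 ± 0.46 (adjusted p = 1.0), Wnt7b at -1.28 ± 1.36 (adjusted p = 1.0) and Dkk1 at -0.83 ± 0.47 (adjusted p = 1.0).

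**Figure D5:**
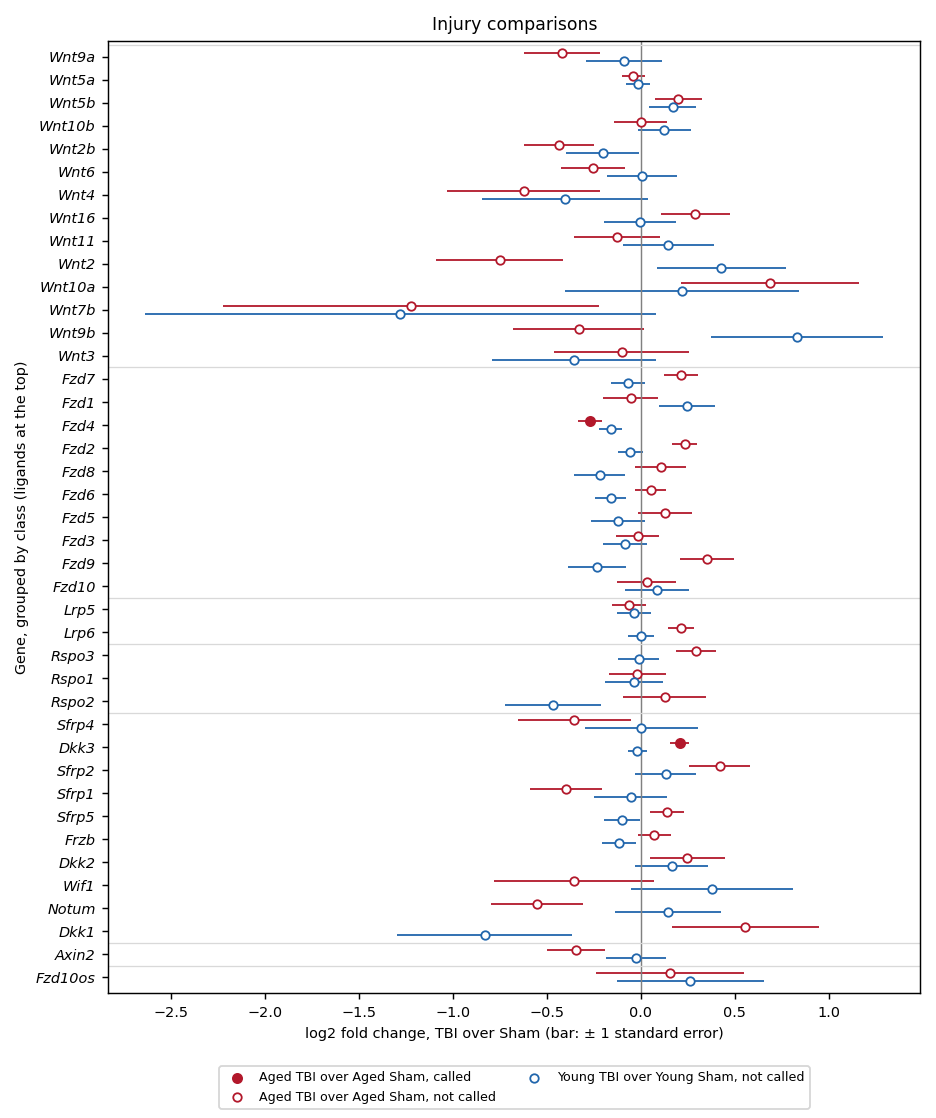
Log2 fold changes of the 41 tested members, TBI over Sham, with bars of 1 standard error; Aged TBI over Aged Sham is drawn in red above Young TBI over Young Sham in blue, and filled points passed an adjusted p under 0.1. Filled points stand at Fzd4, below 0, and Dkk3, above 0, both in aged mice.

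Whether injury acted differently at the 2 ages was tested as an interaction, the aged effect minus the young effect. No member was called by edgeR (0% of all genes tested, that is 0) or by DESeq2, and 6 of 41 had an unadjusted p under 0.05 (1386 of 18238 genes did), namely Dkk3, Fzd2, Fzd9, Wnt2, Dkk1 and Fzd7. For Fzd9 the interaction was 0.59 ± 0.21 (adjusted p = 0.643) on the log2 scale, with injury effects of 0.35 ± 0.14 in aged and -0.23 ± 0.15 in young mice, and for Dkk3 it was 0.22 ± 0.07 (adjusted p = 0.643). The calls made for injury in aged mice only are therefore not shown to differ from the young. The same holds for every member called in 1 age comparison and not in the other, among them Lrp6, Fzd2, Wnt9b and Fzd9. The difference of the age effects is the same interaction, and for Lrp6 and Wnt9b it was 0.21 ± 0.10 (adjusted p = 0.653) and -1.16 ± 0.58 (adjusted p = 0.658).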

How the data were processed

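Dorsal meninges of 4 groups of mice, 3 pooled libraries in each and 12 in all, were sequenced in bulk. The authors deposited a table of raw counts per gene, for which paired-end reads were aligned to mm10 with HISAT2, filtered with SAMtools and counted with HTSeq after duplicates were removed; for the tool versions, the annotation release and the strand setting, nothing was given in the sources used here. All 12 columns were used, and 19413 of 55385 rows held no count.

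Genes were kept with filterByExpr over the 4 groups (18238 genes with 99.8% of counts), scaled by TMM (factors 0.969 to 1.036) and fitted in 1 quasi-likelihood model over all 12 libraries with edgeR 4.0.16 in R 4.3.3 (common dispersion 0.0151). Each comparison had two-sided p-values with the Benjamini-Hochberg adjustment across the 18238 genes, and calls were made under 0.1. The study used DESeq2, which was run here (1.42.0) as an alternative. Standard errors of log2 fold changes were taken from the fold change and its F statistic. CPM used the TMM-scaled totals, in which 1 count was worth 0.0609 to 0.128 CPM, and CPM per kb used union exon lengths from GENCODE M21 (GRCm38), matched by name. P-values measure the spread between pools.

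Named genes were all called members, the 3 most abundant of each class, members set aside for low counts and, among called partners, the 3 largest rises and 3 largest falls of each comparison; other members, Ctnnb1 and the single markers named were chosen after their values were seen. The members, partners and marker lists were chosen with earlier results of these data known. Alternatives were DESeq2, 2 other scalings, no filter, only the groups compared, the replicate number as a block, and each library left out; leaving out 3 libraries together was added after the data were seen. The edgeR steps were also run on simulated counts, with the outcome not given here. These counts used the dispersion fitted to the same data and held no libraries that stood apart, so nothing is concluded from them. Replicate numbers were not used to pair libraries.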

Additional observations from a re-analysis of the deposited data

How the results depend on the processing

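No called value of a named gene changed direction under any alternative that was run: over the alternatives to the 38 calls of named genes, 526 values stayed past the threshold and 196 no longer passed. Counts of called members changed when single libraries were left out, also libraries outside the comparison. How many of all genes were called in the same refits is not given here. Leaving out 1 library at a time gave 5 to 15 called members in Aged Sham against Young Sham (13 with all libraries), with 5 without Young Sham 3, 7 without Young Sham 1 and 8 without Aged Sham 2. In Aged TBI against Young TBI it gave 3 to 14 (10 with all libraries), with 3 without Aged TBI 1, 3 without Young TBI 2 and 4 without Young TBI 1. In Aged TBI against Aged Sham it gave 0 to 2 (2 with all libraries), with 0 in 9 refits, 1 without Aged Sham 1, 1 without Young Sham 2 and 2 without Young TBI 2. Fitting only the groups compared called 7 members in Aged Sham against Young Sham and 0 in Aged TBI against Aged Sham, and 14 in Aged TBI against Young TBI. In Aged TBI against Aged Sham the count was 1 with DESeq2 size factors in edgeR, 1 with library totals alone and 0 without the 3 libraries that stood apart. The cause of these changes was not tested.

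The replicate block (replicate number as a term in the fit) called 9 members in Aged Sham against Young Sham, 8 in Aged TBI against Young TBI and 0 in Aged TBI against Aged Sham. The replicate numbers are only names: over 12 pairs of same-numbered libraries the correlation of deviations ranged from -0.18 to 0.11, and 1 exceeded 0.1. Injury in young mice and the interaction gave 0 called members in every alternative. Scaling by library totals alone raised the share of higher calls over all genes to 66.3% in Aged Sham against Young Sham (50.6% with TMM) and 71.8% in Aged TBI against Young TBI (49.1% with TMM), with a median shift of at most 0.08 on the log2 scale. The calls are limited in that each group had only 3 pools and several adjusted p-values lay near the threshold of 0.1. Members under about 1 CPM also had few counts.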
